A study of Mus musculus with 4 samples.

Results

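The enzymes and regulators of cholesterol and fatty acid synthesis were followed in cultured mouse adipose cells. The set held 31 of the 32285 genes listed in the count matrices, chosen by symbol from pathway knowledge with earlier results of these data known. Of them, 21 were for cholesterol synthesis and its control and 10 for the synthesis, elongation and desaturation of fatty acids. All 31 had UMIs (unique molecular identifiers, 1 per captured RNA molecule) in every library. A filter on low levels, a mean of at least 5 CPM (UMIs of a gene per 1000000 UMIs of a library's cells) over the 4 libraries, was passed by 30 of them and by 10033 genes in all, and Tm7sf2 was the member below it.

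Droplet-based single-cell RNA sequencing had been run on 4 cultures of C57BL/6J mouse cells, 1 library each. DFAT cells (de-differentiated fat cells) had been grown from floating adipocytes by ceiling culture, and SVF cells (adherent cells of the stromal vascular fraction, largely adipose stem and progenitor cells) had been grown from the same depots, which were inguinal (iWAT) and epididymal (eWAT) white adipose tissue. The mice were males fed a chow diet, for DFAT and SVF cultures alike. The groups carried no transgene or drug, and neither the age of the donors nor the number of mice behind a library is given in the sources used here. The groups are called iWAT_DFAT, eWAT_DFAT, iWAT_SVF and eWAT_SVF. With 1 library a group, culture, dissociation, library and group cannot be told apart and no test across samples was possible. Intervals in brackets are 95% exact intervals that cover counting error only.

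Cells are barcodes with 5000 to 75000 UMIs, 200 to 7500 detected genes and under 10% mitochondrial UMIs, and they numbered 7629 in iWAT_DFAT, 6464 in eWAT_DFAT, 7424 in iWAT_SVF and 6745 in eWAT_SVF. Their median depth was 22111 to 27617 UMIs, and any pair of libraries shared 13 to 20 cell barcodes. At least 3 of 8 stromal markers (such as Pdgfra, Dcn and Col1a1) were found in 94.3% to 99.1% of cells, while the summed level of these markers was 2454 CPM in eWAT_DFAT against 6854 to 7391 CPM in the other libraries. The summed level of 12 adipocyte markers (such as Adipoq, Plin1 and Cidec) was 40.5 CPM in iWAT_DFAT, 123 CPM in eWAT_DFAT and 3.29 and 4.61 CPM in iWAT_SVF and eWAT_SVF, with 1 or 2 of the 12 at 0 in each library. Cells with at least 3 G2/M markers made up 44.5% to 61.9% of a library.

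Cells make cholesterol from acetyl-CoA through mevalonate, farnesyl pyrophosphate, squalene and lanosterol. When sterols in the endoplasmic reticulum fall, SCAP escorts the membrane-bound factors SREBP-1 and SREBP-2 to the Golgi for cleavage, and the released fragments enter the nucleus and switch on these genes, whereas INSIG proteins hold the complex back when sterols are plentiful. SREBP factors bind weakly alone and work with NF-Y, which binds CCAAT boxes, and with Sp1, which binds GC boxes. In adipose tissue the fatty acid branch feeds triglyceride storage in adipocytes, while cultured stromal cells need sterols and unsaturated fatty acids for membranes.

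The promoters of 5 cholesterol genes are shown, picked by the RNA ratios of the genes. Whether promoter sequence bears on those ratios was not tested. Hmgcs1 and Lss had the highest inguinal over epididymal ratios among DFAT cells, Idi1 varied most steeply with the rest of the pathway across cells in 3 of the 4 libraries and Mvd in iWAT_DFAT, and Sc5d was the cholesterol gene that ran the other way between depots in DFAT cells. Each line gives the 200 bases before the RefSeq start of the gene (build GRCm38.p6), 5′ to 3′ on the gene's strand. They lie at chr13:119690151-119690350 (+) for Hmgcs1, chr13:8885406-8885605 (+) for Idi1, chr8:122443423-122443622 (-) for Mvd, chr10:76531405-76531604 (+) for Lss and chr9:42264301-42264500 (-) for Sc5d. Capitals mark CCAAT on either strand (ATTGG when read from the other) and, in Hmgcs1, TCACCCCAC, which has the letters TCACNCCAC of the classical sterol regulatory element.
Hmgcs1: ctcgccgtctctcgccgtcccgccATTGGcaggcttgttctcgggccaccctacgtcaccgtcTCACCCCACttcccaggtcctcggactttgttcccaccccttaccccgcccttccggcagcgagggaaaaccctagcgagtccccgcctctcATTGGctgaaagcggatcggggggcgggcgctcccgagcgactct
Idi1: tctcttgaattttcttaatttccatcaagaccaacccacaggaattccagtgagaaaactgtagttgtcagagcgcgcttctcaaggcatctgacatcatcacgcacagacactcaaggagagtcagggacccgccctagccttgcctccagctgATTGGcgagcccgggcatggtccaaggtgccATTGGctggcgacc
Mvd: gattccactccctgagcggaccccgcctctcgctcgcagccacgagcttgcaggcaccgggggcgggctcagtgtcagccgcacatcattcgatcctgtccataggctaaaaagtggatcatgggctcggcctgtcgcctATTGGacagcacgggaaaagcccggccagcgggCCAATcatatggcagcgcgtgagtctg
Lss: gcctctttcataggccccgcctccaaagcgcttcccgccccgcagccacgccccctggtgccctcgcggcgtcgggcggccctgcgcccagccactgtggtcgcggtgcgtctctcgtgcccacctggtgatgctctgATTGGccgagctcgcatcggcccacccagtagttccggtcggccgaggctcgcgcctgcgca
Sc5d: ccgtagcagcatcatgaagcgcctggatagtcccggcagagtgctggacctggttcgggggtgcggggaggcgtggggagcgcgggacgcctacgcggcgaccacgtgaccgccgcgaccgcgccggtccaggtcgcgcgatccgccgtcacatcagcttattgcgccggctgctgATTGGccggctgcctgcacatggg

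RefSeq promoter windows, from 250 bases before to 50 bases after the start, were at hand for 24 of the 31 genes, namely 17 cholesterol and 7 fatty acid genes. CCAAT on either strand was found in 16 of the 17 cholesterol genes, all but Acat2, and in 4 of the 7 fatty acid genes (Acly, Elovl5, Fasn and Me1). Some genes have more than 1 window, and by window the motif was found in 16 of 20 (80%) and 4 of 8 (50%). It was found in 37.4% of all 32851 windows and in 37.5% of the 10279 windows of genes past the low-level filter. The GC box GGGCGG was found in 16 of the 17 cholesterol genes and in 3 of the 7 fatty acid genes, or 17 of 20 (85%) and 3 of 8 (37.5%) windows, against 35.7% of all windows and 64.9% of those of genes past the filter. TCACNCCAC was found in Hmgcs1 only, 1 of 20 cholesterol windows, against 1.24% of all windows. Looser forms of the element were not searched for, so the lack of a match does not show that a gene lacks the element. Fdps, Fdft1, Sqle, Stard4, Scd1, Scd2 and Fads1 had no window to search. Counted from the start, the TCACNCCAC match in Hmgcs1 lay at -137, with CCAAT matches at -237, -176, -45 and 10 in the whole window. None of its letters was shared with a match of another motif. A match describes the sequence without showing a site in use.

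The level of most cholesterol genes was lowest in eWAT_DFAT. Of the 20 cholesterol genes past the filter, 18 had their lowest level there, as did 24.8% of all genes past the filter, and Hsd17b7 (lowest in eWAT_SVF) and Sc5d (lowest in iWAT_DFAT) were the exceptions. The 21 genes together made up 1159 CPM in iWAT_DFAT, 575 CPM in eWAT_DFAT, 1183 CPM in iWAT_SVF and 855 CPM in eWAT_SVF. Droplets with 1 to 100 UMIs, which hold free RNA, carried the same genes at 1087 CPM in iWAT_DFAT, 573 in eWAT_DFAT, 1229 in iWAT_SVF and 757 in eWAT_SVF, and the part of free RNA in the values of single cells was not tested beyond the subtraction among the alternatives. In such sums over a library, fewer cells of a kind and less RNA per cell cannot be told apart. The 10 fatty acid genes together made up 857 CPM in iWAT_DFAT, 575 CPM in eWAT_DFAT, 683 CPM in iWAT_SVF and 506 CPM in eWAT_SVF. Their sum was lowest in eWAT_SVF, where Scd1 had 46.0 CPM against 138 CPM in eWAT_DFAT. This gap in 1 gene is wider than the gap between the sums of the epididymal libraries, so their order rests on Scd1.

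**Figure D1:**
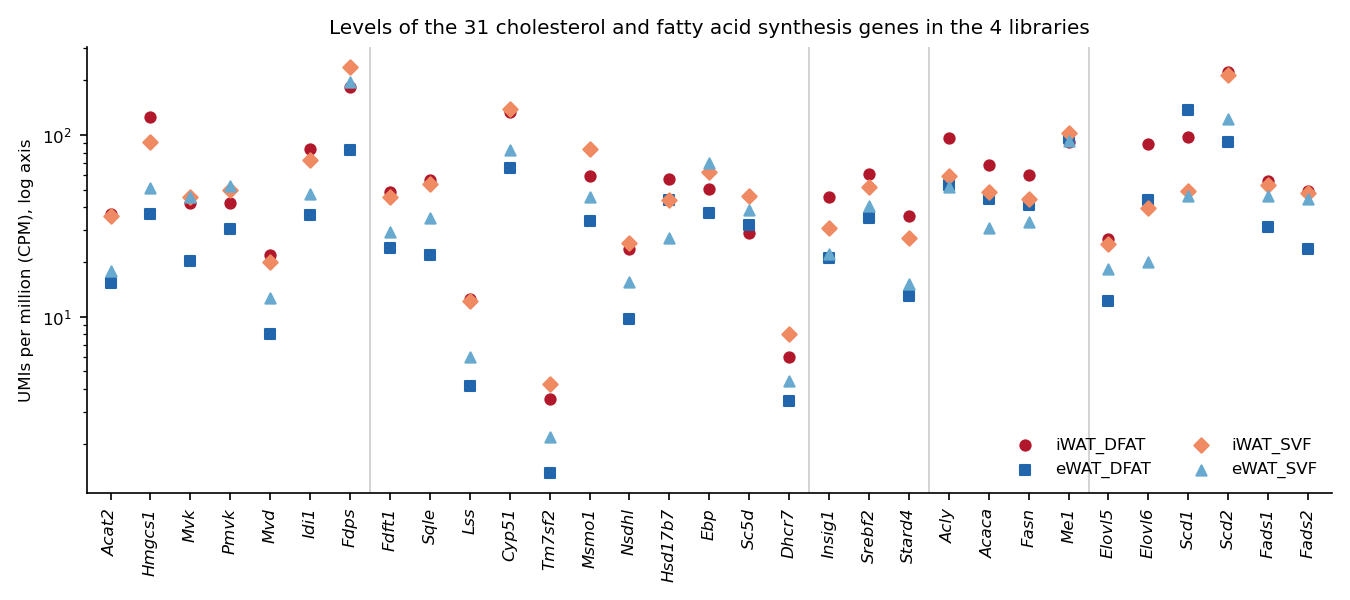
Level of each of the 31 genes in CPM (log axis) in the 4 libraries, 1 symbol per library, with vertical lines between the roles (acetyl-CoA to farnesyl pyrophosphate, squalene and sterol enzymes, sterol sensing and transport, fatty acid synthesis, elongation and desaturation). Within most cholesterol genes the eWAT_DFAT square is the lowest symbol, as for Hmgcs1 at 36.7 CPM against 50.8 to 126 CPM; capture differs between genes, so levels are to be compared within a gene only.

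The first question was how the depots compared within each kind of culture. Cholesterol genes were higher in the inguinal than in the epididymal library in both. In DFAT cells, 16 of the 20 were at least 1.5-fold higher in iWAT_DFAT than in eWAT_DFAT and none was 1.5-fold lower, where 16.5% of all genes were that much higher and 8.65% that much lower. Their median log2 ratio was 1.09, a 2.13-fold difference, beside 0.09 over all genes. At 2-fold the count was 13 of 20, with 7.43% of all genes past that mark and 3.59% past it downward, where no member was. In SVF cells, 13 of the 20 were at least 1.5-fold higher in iWAT_SVF than in eWAT_SVF and none lower, where 6.92% of all genes were higher and 6.8% lower, and the median log2 ratio was 0.65 beside 0.05 over all genes. At 2-fold, Acat2 and Lss were higher and none was lower, beside 2.74% and 3.4% of all genes. The 2 comparisons share no library. They may share donors, since the study took adipocytes and SVF cells in parallel from each depot. The genes past 1.5-fold in both numbered 12 of the 20, a share to be read against 2.85% of all genes.

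In the early steps, Hmgcs1 stood out. It condenses acetoacetyl-CoA and acetyl-CoA to HMG-CoA, and it had 126 CPM in iWAT_DFAT, 36.7 in eWAT_DFAT, 91.4 in iWAT_SVF and 50.8 in eWAT_SVF. Both inguinal libraries were above both epididymal ones, 3.44-fold in DFAT cells (log2 1.78 [1.74 to 1.82]) and 1.80-fold in SVF cells (log2 0.85 [0.81 to 0.88]). Acat2, which makes acetoacetyl-CoA, had 36.9, 15.3, 35.7 and 17.8 CPM, with the libraries listed as for Hmgcs1, an order kept for all genes hereafter. It was 2.42-fold higher in iWAT_DFAT than in eWAT_DFAT and just past 2-fold in the SVF libraries, although reads of its near-identical neighbour Acat3 (5.15, 1.16, 0.627 and 0.557 CPM) may be shared with it. Mvd, the decarboxylase that yields isopentenyl pyrophosphate, had 21.8, 8.06, 19.9 and 12.6 CPM, and Idi1, the isomerase that follows, had 83.7, 36.1, 73.0 and 47.3 CPM. Both were more than 2-fold higher in iWAT_DFAT than in eWAT_DFAT, with log2 ratios of 1.43 and 1.21, and about 1.5-fold higher in iWAT_SVF than in eWAT_SVF, with 0.66 and 0.63. The Idi1 value in SVF cells fell below 1.5-fold under 2 of 11 other settings, the lowest being 0.56.

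The other early enzymes passed 1.5-fold between depots in DFAT cells at most, and not in SVF cells. Mvk, mevalonate kinase, had 42.1 CPM in iWAT_DFAT, 20.2 in eWAT_DFAT, 45.7 in iWAT_SVF and 45.6 in eWAT_SVF. Its 2 SVF libraries were level (log2 0.00 [-0.04 to 0.04]), and eWAT_DFAT was the one that lay apart. Pmvk, phosphomevalonate kinase, had 42.4, 30.3, 49.6 and 52.2 CPM and passed 1.5-fold in neither depot comparison. Fdps, which builds farnesyl pyrophosphate, had 184, 82.2, 235 and 194 CPM, with a log2 ratio of 1.17 between depots in DFAT cells and 0.28 in SVF cells.

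Most squalene and sterol enzymes were higher in the inguinal library of both kinds of culture. Of the 10 past the filter, 7 were at least 1.5-fold higher in iWAT_DFAT than in eWAT_DFAT and 8 in iWAT_SVF than in eWAT_SVF, where 16.5% and 6.92% of all genes were. With median-of-ratios scaling, Sqle (log2 0.55) and Fdft1 (0.58) fell under 1.5-fold in the SVF comparison, while the calls in DFAT cells were kept in all 11 other settings. Lss, the cyclase that forms lanosterol, had 12.6 CPM in iWAT_DFAT, 4.19 in eWAT_DFAT, 12.3 in iWAT_SVF and 5.99 in eWAT_SVF, so that the inguinal libraries nearly coincided (log2 0.04 [-0.04 to 0.12] between them). It was 3.01-fold higher in iWAT_DFAT than in eWAT_DFAT and 2.05-fold higher in iWAT_SVF than in eWAT_SVF. Sqle, the epoxidase ahead of Lss, had 56.5, 21.8, 53.7 and 35.1 CPM, and Fdft1, which joins 2 farnesyl units into squalene, had 48.3, 23.8, 45.7 and 29.3 CPM. In both genes the inguinal libraries lay close together and above the epididymal ones.

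After lanosterol, Cyp51, the 14-alpha demethylase, had 133, 65.8, 138 and 83.1 CPM, and Nsdhl, a C4 decarboxylating dehydrogenase, had 23.6, 9.69, 25.6 and 15.5 CPM. Msmo1, the C4 methyl oxidase, had 59.5, 33.7, 83.2 and 45.6 CPM and differed between depots to a like size in DFAT (log2 0.82) and SVF cells (0.87). Dhcr7, which reduces 7-dehydrocholesterol, was measured at a low level, 5.99, 3.44, 8.09 and 4.46 CPM, and had log2 ratios of 0.80 [0.66 to 0.94] and 0.86 [0.74 to 0.98]. Tm7sf2, a C14 reductase and the member below the filter, had 3.53, 1.38, 4.24 and 2.18 CPM, which is the same order of libraries as for Msmo1 and Dhcr7.

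There were 3 sterol enzymes that stood outside this pattern. Hsd17b7, a C3 ketoreductase, had 57.0 CPM in iWAT_DFAT, 43.7 in eWAT_DFAT, 43.8 in iWAT_SVF and 26.9 in eWAT_SVF. It was higher in the inguinal library of DFAT and SVF cells (log2 0.38 and 0.70) like most of the others. However, it was the one cholesterol gene higher in eWAT_DFAT than in eWAT_SVF. Ebp, the sterol isomerase, had 50.1, 37.1, 62.3 and 69.7 CPM, with the higher SVF value in the epididymal library. Sc5d, the C5 desaturase, had 28.8, 32.0, 46.2 and 38.4 CPM, and it was the one cholesterol gene past the filter with a lower level in iWAT_DFAT than in eWAT_DFAT (log2 -0.15 [-0.21 to -0.10]).

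Genes of sterol sensing and transport followed the enzymes. Stard4, which carries sterol between membranes, had 35.6 CPM in iWAT_DFAT, 13.1 in eWAT_DFAT, 27.1 in iWAT_SVF and 15.2 in eWAT_SVF, a 2.73-fold difference between depots in DFAT cells and 1.78-fold in SVF cells. Insig1, the SREBP inhibitor that is itself an SREBP target, had 45.6, 20.9, 30.6 and 22.1 CPM, and Srebf2, the gene of SREBP-2, had 61.3, 35.1, 51.8 and 40.7 CPM. Both passed 1.5-fold between depots in DFAT cells (log2 1.12 and 0.80) and neither did in SVF cells (0.47 and 0.35).

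Fatty acid genes were mostly higher in the inguinal libraries too. Of the 10, 7 were at least 1.5-fold higher in iWAT_DFAT than in eWAT_DFAT (median log2 ratio 0.85) and 3 in iWAT_SVF than in eWAT_SVF (median 0.31), where 16.5% and 6.92% of all genes were. None was that much lower in either, where 8.65% and 6.8% of all genes were, although Scd1 was that much lower in iWAT_DFAT than in eWAT_DFAT under 3 of 11 other settings. Whether the 2 depot differences differ from each other could not be tested. Scd2, a stearoyl-CoA desaturase, had 223 CPM in iWAT_DFAT, 91.8 in eWAT_DFAT, 214 in iWAT_SVF and 123 in eWAT_SVF, with both inguinal libraries on top. Fads2 and Fads1, the delta-6 and delta-5 desaturases that lie near each other on chromosome 19, had 49.4, 23.6, 48.2 and 44.7 CPM and 55.9, 31.1, 53.3 and 46.2 CPM. In both genes eWAT_DFAT lay well below the other 3 libraries. Elovl5, which elongates polyunsaturated fatty acids, had 26.6, 12.2, 25.1 and 18.3 CPM, again with eWAT_DFAT lowest.

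Between depots the cytosolic steps moved less in DFAT cells, with a median log2 ratio of 0.59 beside 1.05 for elongation and desaturation. In SVF cells the medians were close, at 0.30 and 0.33. Acly, which releases acetyl-CoA from citrate, had 95.8, 53.0, 59.1 and 51.4 CPM and was set apart by iWAT_DFAT. Acaca, acetyl-CoA carboxylase, had 68.6, 44.6, 48.4 and 30.7 CPM, and Fasn, fatty acid synthase, had 60.5, 41.2, 44.2 and 33.4 CPM. These genes had the same order of libraries, with iWAT_DFAT highest and eWAT_SVF lowest. Me1, the malic enzyme that supplies NADPH, had 91.1, 95.7, 102 and 92.8 CPM and was the most even member over the libraries, with no log2 ratio beyond 0.16 in size in any of the 4 comparisons.

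**Figure D2:**
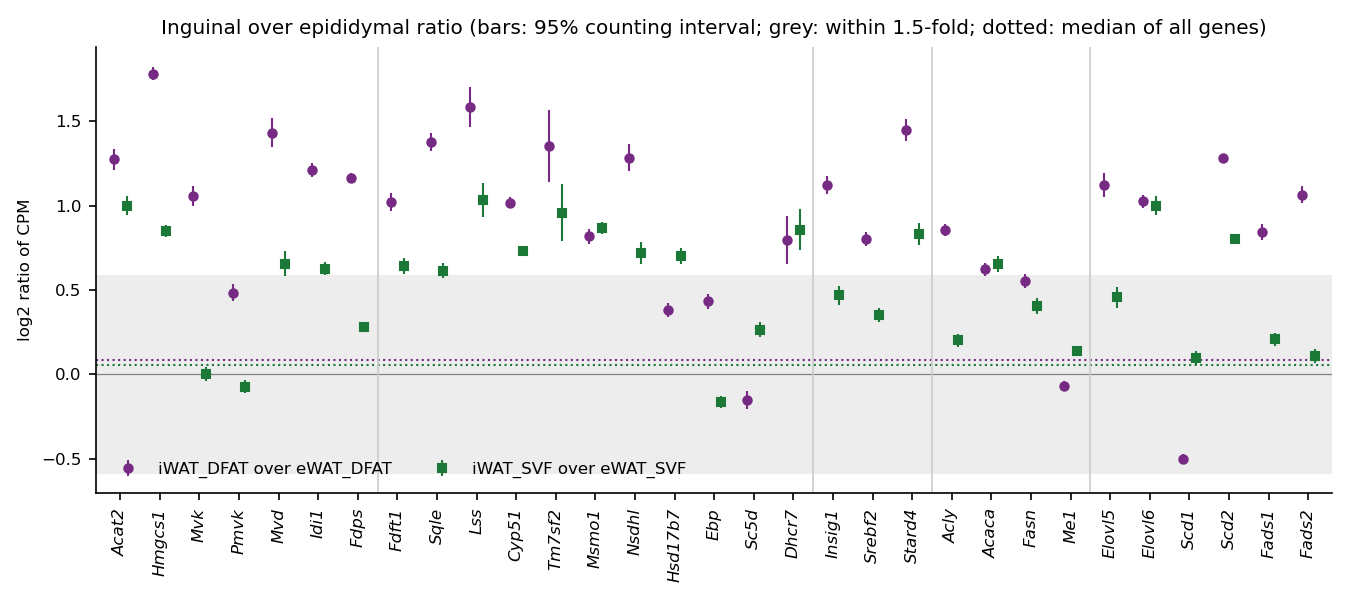
log2 ratio of CPM, inguinal over epididymal, for each gene in DFAT cells (circles) and SVF cells (squares), with 95% counting intervals; grey marks less than 1.5-fold and dotted lines the median of all genes (0.09 and 0.05). In DFAT cells 23 of the 30 genes past the filter lie above the grey band, 16 cholesterol and 7 fatty acid genes, and Scd1 (-0.50), Sc5d (-0.15) and Me1 (-0.07) lie below 0.

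The second question was how DFAT cells compared with SVF cells of the same depot. In iWAT the cholesterol genes stayed close to level: the median log2 ratio of iWAT_DFAT over iWAT_SVF was 0.04 beside 0.08 over all genes, none of the 20 was 1.5-fold higher and Sc5d was 1.5-fold lower (log2 -0.68), where 17.2% of all genes were that much higher and 9.78% lower. None reached 2-fold either way, beside 8.9% of all genes upward and 4.83% downward. Without G2/M-marker cells 2 passed 1.5-fold upward, Insig1 (0.68) and Stard4 (0.62), and 1 did with free RNA subtracted at 10%. Under these settings 20.2% and 17.6% of all genes did. The 20 cholesterol genes were split in direction, with the counting intervals of 10 above 0 and of 9 below it. In eWAT they were mostly lower in DFAT cells. The median log2 ratio of eWAT_DFAT over eWAT_SVF was -0.41 beside 0.07 over all genes, and 19 of the 20 were below 0. At 1.5-fold, 7 were lower and Hsd17b7 was higher, where 12.3% of all genes were lower and 14.2% higher. The 7 were Fdps (log2 -1.24), Mvk (-1.18), Ebp (-0.91), Pmvk (-0.79), Sqle (-0.69), Nsdhl (-0.68) and Mvd (-0.65). The first pair also passed 2-fold, beside 5.94% of all genes downward and 5.72% upward. Of the 7, Mvd and Nsdhl fell under 1.5-fold without the cells that held G2/M markers, at -0.56 and -0.55.

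The 10 fatty acid genes had a median log2 ratio of DFAT over SVF of 0.27 in iWAT, where 3 were 1.5-fold higher and none lower (17.2% and 9.78% of all genes). In eWAT the median was 0.04, and 2 were higher and 1 lower, near the 14.2% and 12.3% of all genes. The lower count was 3 with median-of-ratios scaling and 2 under 6 other settings, and the higher count was 1 without adipocyte-marker cells or with only stromal-marker cells. Elovl6 and Scd1 were the members past 1.5-fold in both depots. A 1.5-fold rise in both depots was seen in these 2 of the 10 fatty acid genes, in none of the 20 cholesterol genes and in 6.93% of all genes. Elovl6, which elongates palmitate to stearate, had 88.9 CPM in iWAT_DFAT, 43.6 in eWAT_DFAT, 39.9 in iWAT_SVF and 19.9 in eWAT_SVF. The 4 values form a regular grid: DFAT over SVF was 2.23-fold in iWAT and 2.19-fold in eWAT, and iWAT over eWAT was 2.04-fold in DFAT and 2.00-fold in SVF cells. The gene spans 106 kb, and the 1003 genes of 79.9 to 138 kb had median log2 ratios of 0.24 in iWAT_DFAT over iWAT_SVF and 0.14 in eWAT_DFAT over eWAT_SVF, beside 1.16 and 1.13 for Elovl6, and the part of gene span in these ratios was not tested. Acly was the third fatty acid gene past 1.5-fold in iWAT (log2 0.70), and it was level in eWAT (0.04). Fads2 was 1.5-fold lower in eWAT_DFAT than in eWAT_SVF (log2 -0.92) and level in iWAT (0.03).

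**Figure D3:**
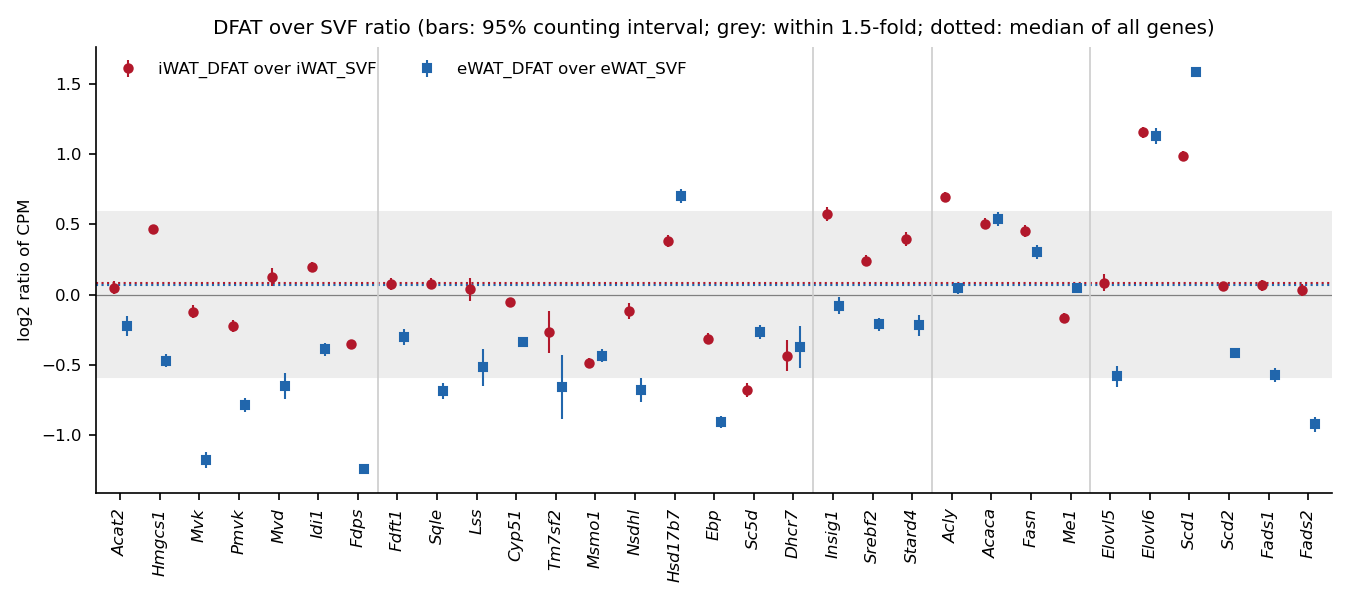
log2 ratio of CPM, DFAT over SVF, for each gene in iWAT (circles) and eWAT (squares), with 95% counting intervals; grey marks less than 1.5-fold and dotted lines the median of all genes (0.08 and 0.07). From Acat2 to Stard4 most squares lie below the circles, and Elovl6 (1.16 and 1.13) and Scd1 (0.98 and 1.58) lie above the band in both depots.

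Scd1, the stearoyl-CoA desaturase typical of fat cells, had 97.4 CPM in iWAT_DFAT, 138 in eWAT_DFAT, 49.2 in iWAT_SVF and 46.0 in eWAT_SVF, and most of the eWAT_DFAT value came from few cells. Cells with UMIs of at least 3 of the 12 adipocyte markers, of which Scd1 is none, numbered 284 in eWAT_DFAT and 136 in iWAT_DFAT, and 7 and 6 in eWAT_SVF and iWAT_SVF. The class is a range and not a type, since 92 and 71 of the DFAT cells held exactly 3 markers and 264 and 320 more held exactly 2. In eWAT_DFAT these cells held 4.25% of the UMIs of the library and 61.1% of its Scd1 UMIs, at 1982 CPM against 55.9 CPM in the other cells. In iWAT_DFAT they held 2.02% of the UMIs and 23.5% of the Scd1 UMIs, at 1136 CPM against 76.0 CPM. Without these cells the log2 ratio of Scd1 in eWAT_DFAT over eWAT_SVF was 0.32 in place of 1.58, that in iWAT_DFAT over iWAT_SVF was 0.66 in place of 0.98, and that between the DFAT libraries changed sign, from -0.50 to 0.44. Without G2/M-marker cells the last ratio was -0.98 instead.

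The other members shared this concentration only in part. In eWAT_DFAT, 7 of the 20 cholesterol genes and 3 of the 10 fatty acid genes were at least 1.5-fold higher in the adipocyte-marker cells than in the remaining cells and none was lower, where 13.1% of all genes were higher and 14.7% lower. Insig1 led the cholesterol genes at 70.2 against 18.7 CPM (log2 1.90 [1.77 to 2.03]) and Acat2 followed at 35.1 against 14.4 CPM (1.29 [1.10 to 1.47]). In iWAT_DFAT, Insig1 alone of the cholesterol genes passed 1.5-fold upward (0.71) and Mvd and Msmo1 passed it downward (-0.62 and -0.78), where 7.62% of all genes were higher and 10.3% lower. Acaca was higher in these cells of both libraries, by 1.08 in iWAT_DFAT and 0.86 in eWAT_DFAT on the log2 scale. Elovl6 was level, at 0.12 and 0.02. Leaving these cells out moved the list medians little: that of the cholesterol genes in iWAT_DFAT over eWAT_DFAT was then 1.13.

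**Figure D4:**
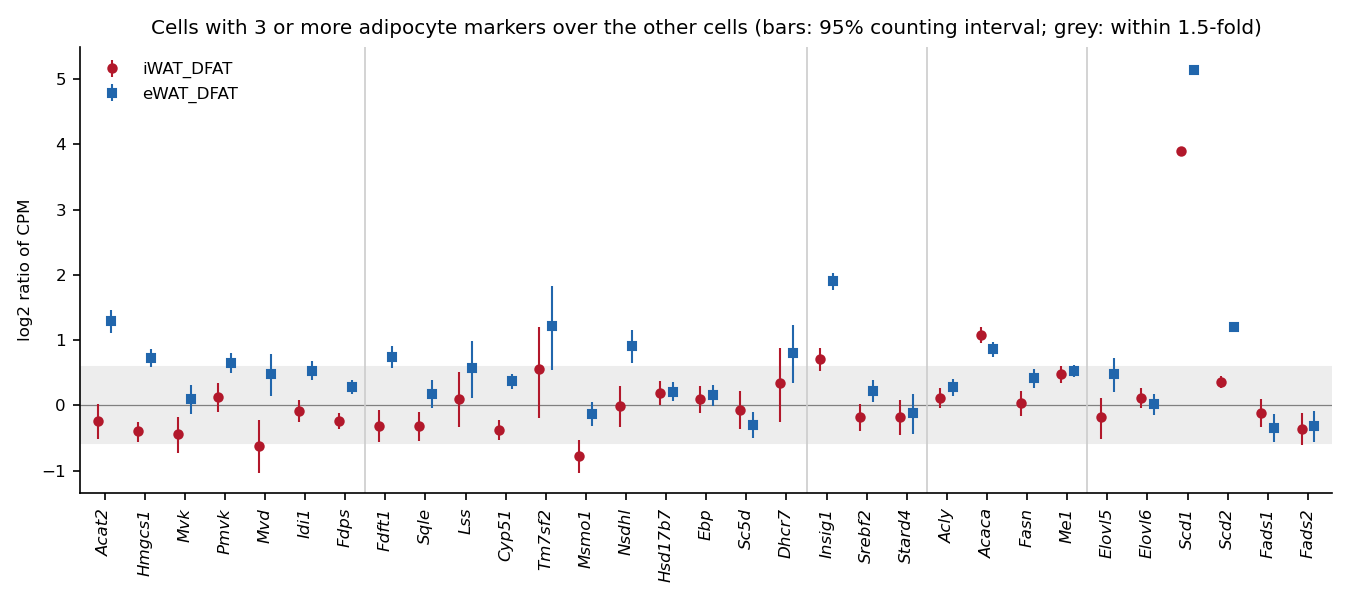
log2 ratio of CPM in cells with 3 or more adipocyte markers over the other cells of the same library, for iWAT_DFAT (circles, 136 cells) and eWAT_DFAT (squares, 284 cells), with 95% counting intervals; grey marks less than 1.5-fold. Scd1 stands far above the rest in both libraries (3.90 and 5.15), with Insig1 (0.71 and 1.90) next in eWAT_DFAT.

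In endothelial-marker cells the counts of members past 1.5-fold lay above the shares over all genes in some libraries and below them in others. Cells with at least 3 of 6 endothelial markers numbered 22 in iWAT_DFAT, where they were taken as too few to compare. They numbered 147 in eWAT_DFAT, 56 in iWAT_SVF and 145 in eWAT_SVF, and in these 3 libraries they were shallower than the rest, with a median of 11794 to 15912 UMIs. Stard4 was higher in them in all 3 libraries, by 1.24, 1.26 and 1.15 on the log2 scale. Insig1 (1.12, 0.64 and 0.97) and Elovl5 (1.72, 0.81 and 0.87) were higher too, and Hsd17b7 was lower (-0.59, -1.24 and -1.22). Past 1.5-fold upward were 7, 2 and 5 of the 20 cholesterol genes and 1, 2 and 1 of the 10 fatty acid genes, where 19.5%, 24.6% and 21.7% of all genes were. Past it downward were 1, 5 and 1 cholesterol genes and 3, 2 and 1 fatty acid genes, where 17.9%, 16.1% and 15.4% of all genes were. The 56 cells of iWAT_SVF held 0.539% of the UMIs of that library, so ratios of genes at low levels rest on few UMIs there.

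Mesothelial-marker cells, with at least 3 of 5 markers, numbered 58 in eWAT_DFAT and 492 in eWAT_SVF. In eWAT_SVF they had 5 of the 20 cholesterol genes past 1.5-fold upward (Dhcr7, Fdft1, Hmgcs1, Lss and Stard4) and none downward, and Elovl6 upward among the fatty acid genes, where 18.4% of all genes were higher and 11.3% lower. In eWAT_DFAT no cholesterol gene was higher and 5 were lower (Hsd17b7, Idi1, Insig1, Msmo1 and Nsdhl), and of the fatty acid genes Elovl5 was higher and 4 were lower (Elovl6, Me1, Scd1 and Scd2), where 15.1% of all genes were higher and 14% lower. Elovl6 was the one gene past 1.5-fold in both, in opposite directions, and the difference between the cultures was not tested. The 58 cells of eWAT_DFAT held 0.784% of the UMIs of that library, so ratios of genes at low levels rest on few UMIs there.

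In G2/M-marker cells no member was 1.5-fold higher in any library, where 9.49% of all genes were in iWAT_DFAT, 6.84% in eWAT_DFAT, 7.83% in iWAT_SVF and 7.57% in eWAT_SVF. Lower by that much were Scd1 in iWAT_DFAT (log2 -0.85) and eWAT_DFAT (-1.79), no member in iWAT_SVF and Lss in eWAT_SVF (-0.61), where 6.29%, 5.15%, 2.75% and 2.43% of all genes were.

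Within each library the cholesterol genes rose and fell together from cell to cell. To describe this, the cells of a library were thinned to 5000 UMIs each and ranked by the UMIs of the cholesterol genes other than the one measured, and the level of the gene left out was compared between the top and the bottom 25% of cells, 1616 to 1907 cells each. All 20 genes were higher in the top 25% in all 4 libraries. Their median log2 ratio was 1.56 in iWAT_DFAT, 1.09 in eWAT_DFAT, 1.84 in iWAT_SVF and 1.45 in eWAT_SVF. At least 1.5-fold were 19 of 20, 18 of 20, 19 of 20 and 19 of 20, where 0.35%, 1.98%, 1.15% and 1.01% of all other genes reached that mark. None was that much lower, where 1.38%, 0.15%, 1.23% and 0.28% of all other genes were. Cells of 1 library share that library, so the counts describe these libraries and carry no test.

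The steepest genes were spread over the pathway, from early to late steps. Idi1 was 3.58-fold to 6.42-fold higher in the top 25% over the 4 libraries, Mvd 2.31-fold to 5.03-fold, Msmo1 2.90-fold to 4.57-fold, Lss 2.65-fold to 4.80-fold and Hmgcs1 2.72-fold to 4.50-fold. The flattest were Ebp, at 1.12-fold to 1.48-fold, and Srebf2, at 1.48-fold to 1.88-fold. Sc5d, which did not share the depot difference of the pathway in DFAT cells, did share its variation across cells, at 1.69-fold to 2.73-fold. Both ends of the ranking held few UMIs of these genes per cell after thinning, with a median over cells of 1 or 2 in the bottom 25%. In the top 25% it was 11 in iWAT_DFAT, 6 in eWAT_DFAT, 11 in iWAT_SVF and 8 in eWAT_SVF. Ratios across cells thus rest on scores of unlike depth in the 4 libraries, and the part of this in their differences was not tested. Median depth was 21048 to 27556 UMIs in these sets of cells over the 4 libraries, and the share of G2/M-marker cells was lower in the top than in the bottom 25% in each library, with 45.6% against 52.1% in iWAT_DFAT and 54.0% against 64.3% in eWAT_DFAT. The part of the cell cycle in the ranking was not tested beyond leaving these cells out, after which the median was 1.43 to 2.10.

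Fatty acid genes joined this variation in graded fashion. Ranked by the cholesterol genes, their median log2 ratio was 0.72 in iWAT_DFAT, 0.37 in eWAT_DFAT, 0.79 in iWAT_SVF and 0.52 in eWAT_SVF. Scd2 was at least 1.5-fold higher in the top 25% of all 4 libraries (1.85-fold to 2.39-fold), Elovl6, Fasn and Scd1 of 3, and Acly, Fads1 and Fads2 of 2. Acaca, Elovl5 and Me1 reached 1.5-fold in none, and Me1 was the nearest to level, between -0.04 and 0.19 on the log2 scale. Elovl6 was 3.08-fold higher in iWAT_SVF and 1.34-fold in eWAT_DFAT. Scd1 went the other way, highest in eWAT_DFAT (3.36-fold), where adipocyte-marker cells made up 7.67% of the top and 2.60% of the bottom 25%. When cells were ranked by the fatty acid genes instead, the cholesterol genes had higher median log2 ratios (0.92, 0.62, 1.08 and 0.70 in the order iWAT_DFAT, eWAT_DFAT, iWAT_SVF and eWAT_SVF) than the fatty acid genes themselves (0.56, 0.37, 0.68 and 0.49). These medians rest on unlike scores, since each fatty acid gene was left out of its own score and the cholesterol genes faced all 10. The score was also thin, with a median over cells of 5 to 7 UMIs in the top and 1 in the bottom 25%. By that ranking 4, 2, 8 and 2 of the 10 fatty acid genes reached 1.5-fold, where 0.52%, 4.9%, 3.05% and 1.82% of all other genes did. Adipocyte-marker cells made up 13.2% of the top and 0.743% of the bottom 25% by this ranking in eWAT_DFAT, and 3.99% and 0.787% in iWAT_DFAT. Without these cells the fatty acid medians were 0.32 in eWAT_DFAT and 0.51 in iWAT_DFAT. No fatty acid gene was 1.5-fold lower, where 0.83%, 0.77%, 0.58% and 0.25% were.

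**Figure D5:**
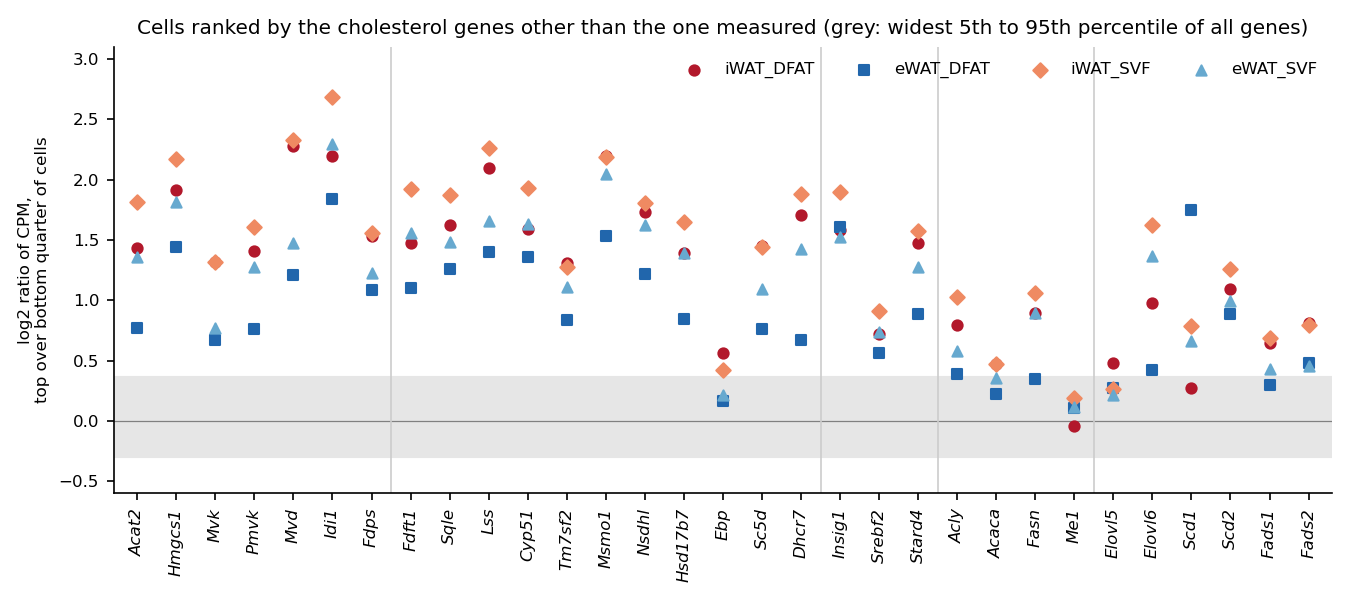
log2 ratio of CPM between the top and the bottom 25% of cells of a library, ranked by the UMIs of the cholesterol genes other than the gene measured, 1 symbol per library; the grey band spans the widest 5th to 95th percentile of all genes in the 4 libraries (-0.30 to 0.37). From Acat2 to Stard4 every symbol but those of Ebp in the epididymal libraries lies above the band, and Idi1 is the steepest gene in iWAT_SVF at 2.68.

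Other genes of the pathway came from lists of regulators, side enzymes, oxysterol targets and fatty acid partners. Of the sterol side enzymes, Lbr, Ggps1, Acat1, Dhdds, Por and Cyb5r3 passed 1.5-fold across cells in no library. Few of all other genes did, 0.35% to 1.98% upward and 0.15% to 1.38% downward over the libraries. Por, the reductase that passes electrons to Cyp51 and Sqle, had 133, 128, 57.7 and 35.2 CPM, and was higher in DFAT than in SVF cells of both depots (log2 1.21 and 1.86) while being level across cells.

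The regulators Srebf1, Scap, Mbtps1, Mbtps2 and Insig2 passed 2-fold in no comparison, where 22% of all genes did in at least 1. Across cells they passed 1.5-fold in no library, beside 0.35% to 1.98% of all other genes upward and 0.15% to 1.38% downward. Srebf1, Mbtps1 and Scap were at least 1.5-fold higher in iWAT_DFAT than in eWAT_DFAT (log2 0.90, 0.78 and 0.71), where 16.5% of all genes were. Scap was also that much higher in iWAT_DFAT than in iWAT_SVF (0.77 [0.71 to 0.84]), as were 17.2% of all genes. Its ratio of eWAT_DFAT over eWAT_SVF was 0.13. The 5 ratios of iWAT_SVF over eWAT_SVF lay between -0.09 and 0.33, and 6.92% of all genes were past 1.5-fold upward there. Of 7 oxysterol and efflux genes past the filter, 4 passed 2-fold either way in at least 1 of the 4 comparisons, as did 22% of all genes. Abca1, the cholesterol exporter and a target of LXR receptors, had 62.8 CPM in iWAT_DFAT, 15.3 in eWAT_DFAT and 17.3 in iWAT_SVF, and it was lower in iWAT_SVF than in eWAT_SVF (log2 -0.47). It was 4.11-fold higher in iWAT_DFAT than in eWAT_DFAT, and its log2 ratio across cells was -0.10, 0.46, -0.99 and -0.47, with no common direction. Soat1, which esterifies cholesterol, had 95.9, 192, 60.2 and 71.4 CPM, with eWAT_DFAT highest, the library in which most cholesterol genes were lowest. Lpcat3, which builds polyunsaturated phospholipids, had 118, 57.4, 51.9 and 52.1 CPM, and Mylip, a ubiquitin ligase induced by LXR receptors, had 6.65, 2.25, 7.86 and 4.40 CPM.

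Among 20 fatty acid partners past the filter, 6 passed 2-fold in some comparison, beside 22% of all genes. The 5 with the largest ratios, picked by that size, were higher in DFAT than in SVF cells of both depots. A 1.5-fold rise in both depots was seen in 6.93% of all genes. Of all 20, 10 were 1.5-fold higher and 1 lower in iWAT_DFAT over iWAT_SVF (17.2% and 9.78% of all genes). In eWAT_DFAT over eWAT_SVF 8 were higher and 3 lower (14.2% and 12.3%). Acss2, which makes acetyl-CoA from acetate, had 19.3 CPM in iWAT_DFAT, 33.2 in eWAT_DFAT, 6.68 in iWAT_SVF and 4.44 in eWAT_SVF, a ratio of 2.89-fold in iWAT and 7.47-fold in eWAT. Acsl4, which activates arachidonate, had 209.6, 155, 41.4 and 32.7 CPM, and G6pdx, the entry to the NADPH-forming pentose phosphate pathway, had 80.0, 79.8, 44.3 and 33.2 CPM. Dgat2, which completes triglycerides, had 12.5, 7.22, 2.21 and 3.27 CPM, and Acsl1 had 23.0, 14.0, 7.59 and 7.49 CPM. Like Scd1, the last pair was concentrated in adipocyte-marker cells, which held 30.8% of the Dgat2 and 48.8% of the Acsl1 UMIs of eWAT_DFAT. Across cells, 2 of the 20 partners in iWAT_DFAT, 6 in eWAT_DFAT, 6 in iWAT_SVF and 4 in eWAT_SVF reached 1.5-fold in the top 25%, where 0.35%, 1.98%, 1.15% and 1.01% of all other genes did. In iWAT_SVF, Acss2 (log2 1.45), Aacs (1.11) and Acsl3 (1.03) were among them, while Pgd and G6pdx lay within 0.21 of 0 in all libraries. The genes differed between libraries. Those of eWAT_DFAT included Dgat2 (0.83) and Acsl1 (1.31) but not Acss2, Aacs or Acsl3 (0.14, 0.39 and 0.34). Adipocyte-marker cells made up 7.67% of the top and 2.60% of the bottom 25% in eWAT_DFAT, and their part in its count was not tested.

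Among the 5 genes outside all lists with the largest median log2 ratio between the top and bottom 25% of cells ranked by the cholesterol genes were Ecrg4, Cd36 and Cxcl10, whose ratios varied between libraries. Ecrg4, at a mean level of 8.88 CPM, had 0.81 in iWAT_DFAT, 3.60 in eWAT_DFAT, 1.42 in iWAT_SVF and 1.03 in eWAT_SVF. Cd36, which takes up fatty acids, had -1.09, 1.11, 1.28 and 1.22. The chemokine Cxcl10, at a mean level of 5.59 CPM and so close to the 5 CPM filter, had 1.35, 0.94, 2.92 and -3.47. Cd36 and Cxcl10 thus each changed sign in 1 library.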

How the data were processed

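Counts were obtained from the authors as deposited: unfiltered UMI counts per gene and barcode of 4 libraries (10x Genomics 3′ chemistry). Per the labels and the study's methods, Cell Ranger 7.0.0 had aligned reads to mm10 with intronic reads counted. The file headers name version 7.1.0 for 3 libraries and version 4 for iWAT_SVF, so whether introns were counted in that library is not known here and was not tested. From the shortest to the longest 10% of genes by span, the median log2 ratio ran from -0.11 to 0.33 in iWAT_DFAT over iWAT_SVF, -0.01 to 0.15 in iWAT_SVF over eWAT_SVF, -0.03 to 0.16 in eWAT_DFAT over eWAT_SVF and -0.06 to 0.33 in iWAT_DFAT over eWAT_DFAT.

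Groups came from the sample titles. UMIs were summed over cells and divided by the library total (183664704 to 199357348 UMIs), and a level of 3 counts corresponds to 0.0150 to 0.0163 CPM. Ratios carry exact conditional binomial intervals (95%), levels exact Poisson ones, for counting error only. Called means past 1.5-fold. UMIs were not corrected for free RNA and doublets were not called. Code was tested on simulated data. Scripts ran in Python 3.11.15 with pandas 2.3.3, scipy 1.17.1 and numpy 2.4.6, and plots were drawn with matplotlib 3.10.9.

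The members and lists were chosen with earlier results of these data known. All 31 members are named, and of the other lists the genes past 2-fold in any comparison, at most 5 per list by size. Outside all lists, the 5 genes with the largest median log2 ratio between the top and bottom 25% of cells by the cholesterol genes were taken. Some genes that this rule or the lists hold are not reported here. The regulators and side enzymes named beside the rule and the genes Aacs, Acsl3 and Pgd were chosen after their values were seen. Promoters are RefSeq's (GRCm38.p6), gene spans GENCODE's on the same build. Alternatives changed cell filters, scaling, free RNA, cell make-up, weighting, the low-level filter and the ranking of cells.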

Additional observations from a re-analysis of the deposited data

Results flagged for a closer look

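For 2 members the DFAT over SVF ratio had opposite signs in the 2 depots with both counting intervals clear of 0 and was past 1.5-fold in one depot, and the difference was not tested, since each value rests on 1 library against 1. Sqle had a log2 ratio of 0.08 in iWAT and -0.69 in eWAT, 0.763 apart, and its iWAT value turned to -0.0120 with median-of-ratios scaling and to -0.0258 in cells with 20000 to 30000 UMIs. Mvd had 0.13 in iWAT and -0.65 in eWAT, 0.776 apart, and its eWAT value fell under 1.5-fold without G2/M-marker cells (-0.56). Fads2 was further apart (0.03 and -0.92, a gap of 0.955), but the interval of its iWAT value included 0. Sqle, Mvd and Fads2 had their lowest level in eWAT_DFAT.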

How the results depend on the processing

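No paired analysis was possible because each group is 1 library, and no replicate was left out for the same reason. The cause of the shifts below was not tested, and 2 alternatives, cells with 20000 to 30000 UMIs and the subtraction of the median of genes of like span, were chosen after seeing the data. Values are median log2 ratios.

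For cholesterol genes in iWAT_DFAT over iWAT_SVF (0.04), median-of-ratios scaling gave -0.0439, cells with 20000 to 30000 UMIs -0.0470 and the span correction -0.0458, so its sign is not settled. In eWAT_DFAT over eWAT_SVF (-0.41) leaving out G2/M-marker cells gave -0.34. In iWAT_DFAT over eWAT_DFAT (1.09) scaling gave 1.01, no G2/M-marker cells 1.02, only stromal-marker cells 1.15 and the mean 1.02. In iWAT_SVF over eWAT_SVF (0.65) scaling gave 0.58 and the mean 0.56.

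For fatty acid genes in iWAT_DFAT over iWAT_SVF (0.27) scaling gave 0.18, free RNA subtracted at 10% 0.32, no G2/M-marker cells 0.46, the mean 0.39 and the span correction 0.12. In eWAT_DFAT over eWAT_SVF (0.04) scaling gave -0.0306, the mean 0.12 and the span correction -0.0672, again with no settled sign. In iWAT_DFAT over eWAT_DFAT (0.85) scaling gave 0.77, no G2/M-marker cells 0.97, cells with 20000 to 30000 UMIs 0.80, the mean 0.68 and the span correction 0.77. In iWAT_SVF over eWAT_SVF (0.31) scaling gave 0.24, free RNA 0.25, no G2/M-marker cells 0.25 and the mean 0.41.

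Across cells, the cholesterol medians of iWAT_DFAT, eWAT_DFAT, iWAT_SVF and eWAT_SVF were 0.98, 0.68, 1.17 and 0.96 between the upper and lower 50% of cells, 1.92, 1.51, 2.20 and 1.81 with cells ranked on all UMIs, and 1.78, 1.43, 2.10 and 1.66 without G2/M-marker cells. The fatty acid medians were 0.36, 0.20, 0.44 and 0.28, then 0.85, 0.55, 1.03 and 0.84, and without G2/M-marker cells 0.68, 0.70 and 0.80 in the first 3 libraries. The other 94 values of this kind moved less than their interval.

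No member past 1.5-fold changed direction. Scd1 in eWAT_DFAT over eWAT_SVF passed it in 9 of 11 settings. Sqle, Fdft1 and Idi1 fell under 1.5-fold in iWAT_SVF over eWAT_SVF with median-of-ratios scaling (0.55, 0.58 and 0.56), as did Acaca in iWAT_DFAT over eWAT_DFAT (0.54). Counts of all genes past 1.5-fold rest on the filter. At a mean of 5 CPM, 1725 were higher and 981 lower in iWAT_DFAT over iWAT_SVF, 1425 and 1235 in eWAT_DFAT over eWAT_SVF, 1653 and 868 in iWAT_DFAT over eWAT_DFAT and 694 and 682 in iWAT_SVF over eWAT_SVF. With a UMI in both libraries as the filter these were 5610 and 4190, 6675 and 3648, 4826 and 4977, and 4557 and 3375. At 1 CPM they were 2472 and 1577, 2244 and 1838, 2356 and 1464, and 1328 and 1171.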
